A study of Mus musculus with 6 samples.

Results

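The transcripts described here are 595 of the 55419 UCSC transcript identifiers in the deposited count table, the block of consecutive rows between row 7664 and row 8260 counted from the first data row. The table is sorted by identifier, so the stretch is a set of neighbouring identifiers and not a set of genes chosen for their function. The rows were chosen because their transcripts ran lower in knockout than in wild-type cells in these same libraries. The comparison of the genotypes within the stretch is therefore given as a description, with no test of the stretch as a whole. The table pairs no identifier with a gene, so the genes, chromosome positions and sequences of the members were not analysed here, and most members are given by row number.

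The cells are TT2 mouse embryonic stem cells, from a cross of a C57BL/6 female and a CBA male, grown with serum and LIF, a cytokine that holds them undifferentiated. One group is wild type and the other lacks both copies of G9a (TT2 G9a-/-), with 3 poly-A RNA-seq libraries in each and no treatment named in the labels. The labels say neither whether libraries of a genotype came from separate cultures nor how many knockout clones were used. Effects of G9a loss and of differences between clones cannot be told apart, and p-values reflect no more than the variation among these libraries, which may be technical. The level of the G9a transcript itself and markers of the cell type were not analysed here, for want of gene names.

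G9a and its partner GLP are enzymes that methylate lysine 9 of histone H3, mostly to the dimethylated form, which marks silent chromatin inside the chromosome arms. In embryonic stem cells they are known to help shut off germline genes. They also act beside Polycomb repressive complex 2, the enzyme complex that methylates lysine 27 of the same histone.

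The 6 libraries held between 5738463 and 9717847 counts, with scaling (TMM) factors between 0.976 and 1.02. Levels are in CPM, a count relative to its TMM-scaled library total. CPM is not corrected for transcript length, so it orders libraries for a transcript and not transcripts by molecule number. In bulk RNA, fewer cells that express a transcript and less of it per cell cannot be told apart. The biological coefficient of variation over all tested transcripts was 5.16%.

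The stretch held proportionally more detected transcripts than the rest of the table. Wild-type counts alone can bring a member into the test, and the rows were chosen as lower in knockout. The shares are therefore not independent of the choice of rows. Of the 595 members, 235 had no read in any library (39.5%), against 49.9% of the 49346 identifiers outside this and 3 other stretches singled out in the same data. A further 172 members had reads but too few to be tested, and 188 were tested (31.6%, against 22.4% outside). The other lower stretches shared this, with 43.1% and 40.9% of identifiers without a read and 26.4% and 30.7% tested in the upper and the lower of them in the table. At least 1 read was found for 50.1% ± 0.970 of members per wild-type library and 48.8% ± 1.18 per knockout library (SD, n = 3 each). Outside the stretches these shares were 39.3% ± 1.45 and 40.4% ± 1.43. Every library detected a larger share of members than of other identifiers. The tested members were expressed at much the same level as others, with a median of 8.56 CPM over the 6 libraries (upper quartile 47.8), against 8.25 CPM outside (upper quartile 49.8). Their median biological coefficient of variation was 7.30% per transcript, against 7.13% outside, but this estimate is drawn towards a trend shared by the whole table. The median SD within a genotype on the log2(CPM + 0.5) scale, not drawn in this way, was 0.172 for members and 0.164 outside. At 8 CPM or more it was 0.0978 against 0.0889, and under 8 CPM 0.275 against 0.269.

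Among the 188 tested members, 94 fell and 11 rose in knockout cells, and 83 did not pass the threshold (edgeR quasi-likelihood test over all 12713 tested transcripts, threshold 0.05 for the Benjamini-Hochberg adjusted p, n = 3 per genotype). Outside the stretches 14.0% of tested transcripts were called lower and 23.3% higher. Because the rows were chosen on this contrast, nothing is read from the gap between members and the rest. In 105 members every knockout library lay below every wild-type library, and in 15 every knockout library lay above, while 68 overlapped. Outside, 18.9% of transcripts were separated with knockout lower and 27.7% with knockout higher. Of the 94 members called lower, 90 were separated in this way, as were all 11 called higher.

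The decrease was moderate and shared by many members. Fitted log2 fold changes (knockout over wild type) had a median of -0.41 and quartiles of -0.73 and -0.17, where the median outside was 0.03. Relative to that median the members were shifted by -0.44, a ratio of 0.739. A total of 154 of the 188 tested members (81.9%) had a log2 fold change below 0, against 47.4% outside. Between -0.8 and -0.2 lay 102 members (54.3%), against 23.4% of transcripts outside. The interquartile range was 0.558 for members and 0.559 outside, so the members lay lower with much the same width.

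**Figure D1:**
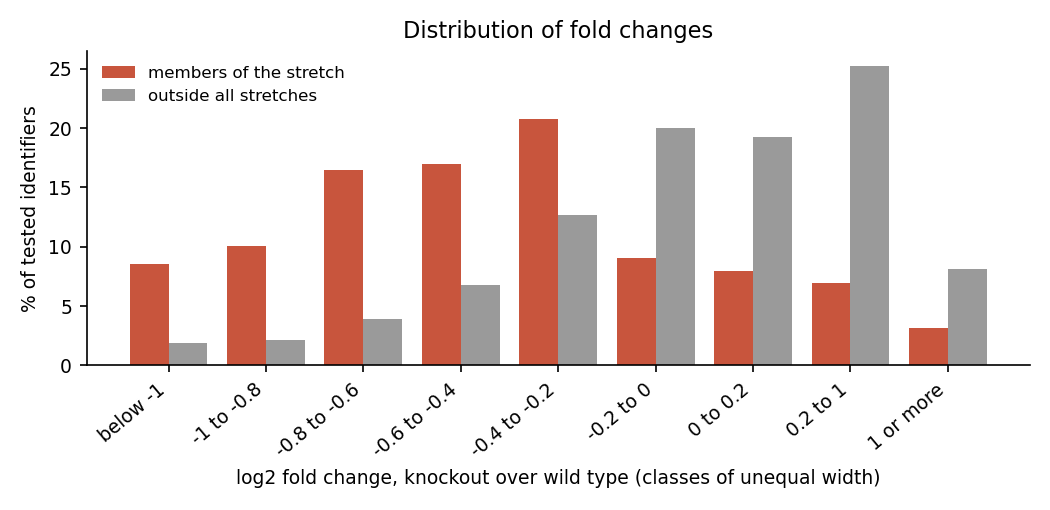
Share of tested transcripts (y axis, percent) in classes of log2 fold change, knockout over wild type (x axis), for the 188 tested members of the stretch and the 11047 tested transcripts outside all stretches. The members peak at -0.4 to -0.2 with 20.7% and carry 16.5% at -0.8 to -0.6, where 3.89% of the transcripts outside lie.

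The median of tested members was lower than outside at every level of expression, while the number of calls followed the precision of the measurement. At a mean of 50 CPM or more, 39 of 46 members fell (84.8%, against 21.8% outside the stretches in that class) and 2 rose, with a median log2 fold change of -0.37 (median standard error 0.0526). Between 8 and 50 CPM 31 of 51 fell (60.8%, against 17.8%) and 4 rose, with a median of -0.39 (standard error 0.124). Among members, calls grew rarer as the standard error grew. Outside the stretches the share called lower also shrank with each weaker class of CPM. Between 2 and 8 CPM 20 of 54 fell (37.0%, against 9.92%) and 3 rose, with a median of -0.41 (standard error 0.246). Under 2 CPM 4 of 37 fell (10.8%, against 5.16%) and 2 rose, and the median was -0.55 (standard error 0.387). Tested weak members thus had a median as low as that of strong ones. Single weak transcripts were seldom told from no change at this depth. The low-count filter could keep a weak member for its wild-type counts alone. Row 7896 is such a case, with means of 1.73 CPM in wild type and 0.491 in knockout. The low median under 2 CPM is therefore not free of the filter and of the choice of rows. Medians outside the stretches ran from 0.01 to 0.04 over the same classes. The share called higher outside was not computed by class, and was 23.3% over all levels.

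**Figure D2:**
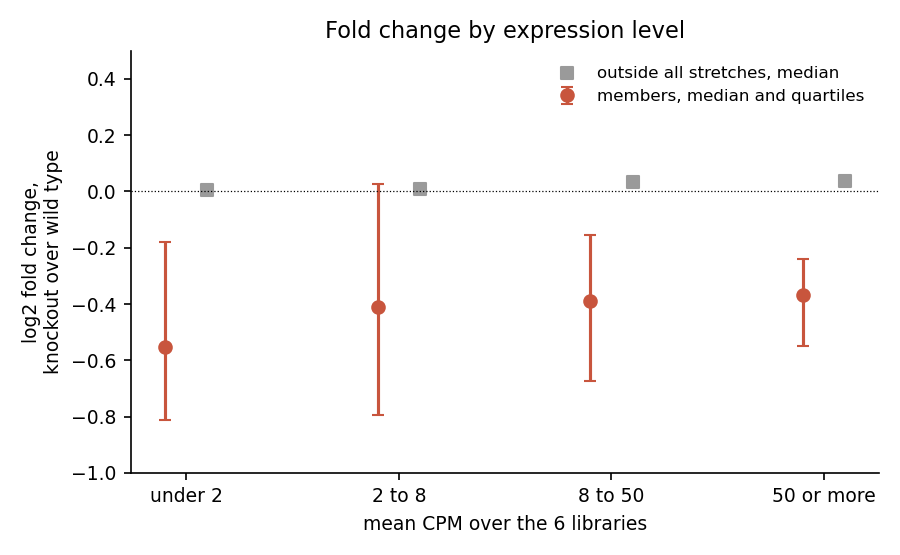
Log2 fold change, knockout over wild type (y axis), by class of mean CPM over the 6 libraries (x axis). Circles are medians of members with bars to the quartiles, squares are medians outside all stretches. Members lie between -0.55 and -0.37 in all 4 classes and the other transcripts near 0.

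Summed over all 595 members, the stretch took a smaller part of each knockout library. It held 1.92%, 1.91% and 1.88% of the counts in wild-type replicates 1, 2 and 3, and 1.48%, 1.46% and 1.44% in knockout replicates 1, 2 and 3. The exact binomial 95% interval (Clopper-Pearson) of each share reached at most 0.0105 percentage points to either side, which covers counting error only. The wild-type libraries all lay above the knockout libraries with a wide gap. The means were 1.90% ± 0.0192 and 1.46% ± 0.0203 (SD, n = 3 each), a ratio of 0.767. Set against the counts outside the stretches in place of the whole library, the ratio was 0.739.

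A few strong transcripts did not carry this sum alone. The 10 members with the highest mean CPM, from 510 to 1627, supplied 56.6% of the counts of the stretch. Of these 9 fell and 0 rose, with log2 fold changes between -0.54 and -0.10. At a mean of 50 CPM or more, 21.8% of tested transcripts outside the stretches were called lower. The rows were chosen on this contrast, so nothing is read from the gap. Without them the stretch took 0.829% ± 0.0117 of the wild-type and 0.632% ± 0.0115 of the knockout counts (SD, n = 3 each), a ratio of 0.762.

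The summed level of the members left out of the test was lower in every knockout library. These members lie in the same chosen rows, so their sum is a description and not separate evidence. The 407 untested members, none with more than 58 reads in all libraries together, summed to 51.5, 47.5 and 47.5 CPM (of the unscaled library total) in wild-type replicates 1, 2 and 3. In knockout replicates 1, 2 and 3 the sums were 38.6, 40.6 and 43.0, all below the wild-type sums. The ratio of the means was 0.834. Untested identifiers outside the stretches summed to a mean of 3403 ± 97.0 CPM for wild type and 3785 ± 136 for knockout (SD, n = 3 each), a ratio of 1.11.

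**Figure D3:**
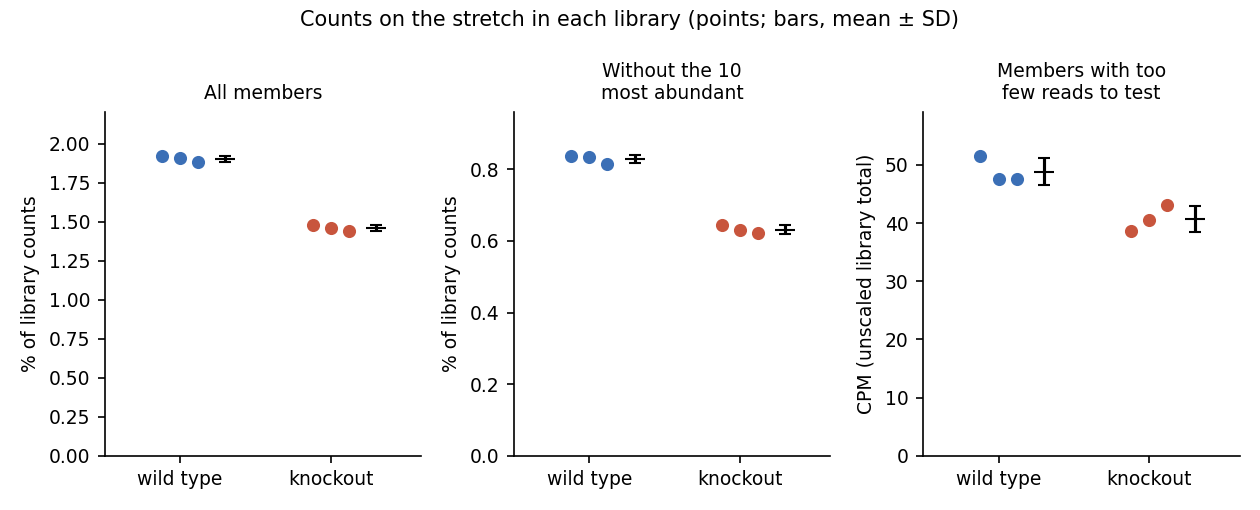
Counts on the stretch in each library, for all members and without the 10 most abundant (percent of library counts), and for the 407 members with too few reads to test (CPM of the unscaled total). Points are libraries, bars the mean and SD of 3, and every wild-type point lies above every knockout point in all 3 panels.

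Each library carried the level of its genotype among weak and strong tested members alike. The rows were chosen as lower in knockout in these same libraries, so the signs below are not independent of that choice. The weak members include some that the low-count filter could keep for their wild-type counts alone. The deviation of a member from its own mean over the 6 libraries was taken on the log2(CPM + 0.5) scale, and the median over members was set against that outside the stretches. For members under 8 CPM it was 0.24, 0.19 and 0.19 in wild-type replicates 1, 2 and 3, and -0.21, -0.19 and -0.21 in knockout replicates 1, 2 and 3. For members at 8 CPM or more it was 0.20, 0.25 and 0.19 in wild type and -0.19, -0.19 and -0.30 in knockout, in the same order. Knockout replicate 3, the library with the fewest counts, was the lowest among the stronger members and not set apart among the weaker ones.

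The decrease was deepest in the middle of the stretch. In 5 consecutive blocks of 119 rows, the median log2 fold change of tested members was -0.34 in the block that ends at row 7783, -0.56 in rows 7784 to 7902 and -0.60 in rows 7903 to 8021. It was -0.36 in rows 8022 to 8140 and -0.32 from row 8141 to the end. The pair of blocks from row 7784 to row 8021 was the lowest. The members that fell numbered 14 of 35 (40%), 17 of 28 (60.7%), 23 of 37 (62.2%), 17 of 35 (48.6%) and 23 of 53 (43.4%) in the same order. Those that rose numbered 4, 0, 1, 3 and 3. Outside all stretches 14.0% of tested transcripts fell and 23.3% rose. In the blocks of 119 rows just before and just after the stretch, 30.8% and 21.4% fell. At 8 CPM or more the medians were -0.33, -0.59, -0.55, -0.30 and -0.32, over 14, 13, 19, 18 and 33 members. The same middle blocks were thus the lowest among the stronger members. The rows were chosen on this contrast, so the profile along the stretch is a description and not free of where its ends were set. In every block the median deviations of the 3 wild-type libraries lay above those of the 3 knockout libraries. The difference between blocks was not tested.

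The ends were not sharp. The 3 tested transcripts just inside the start had log2 fold changes of -0.40, -0.78 and -0.32. The 3 just before it, rows 7657, 7663 and 7664, had -0.31, -0.38 and -0.57. At the other end the last 3 tested members had -0.43, -0.86 and -0.37, and the next tested transcripts outside, rows 8260, 8266 and 8270, had -0.71, -1.03 and -0.17. Transcripts just before the start were thus about as low as those just inside. After the end row 8260 was called lower, but rows 8266 (0.939 CPM) and 8270 overlapped between genotypes (edgeR adjusted p = 0.0969 and 0.519). Over wider flanks the values returned towards those of the rest of the table. The median was -0.11 in the 119 rows before the stretch and -0.15 in the 119 rows after it. Further out it was -0.14 in rows 7308 to 7426 and -0.05 in rows 7427 to 7545, then 0.06 in rows 8379 to 8497 and 0.13 in rows 8498 to 8616.

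**Figure D4:**
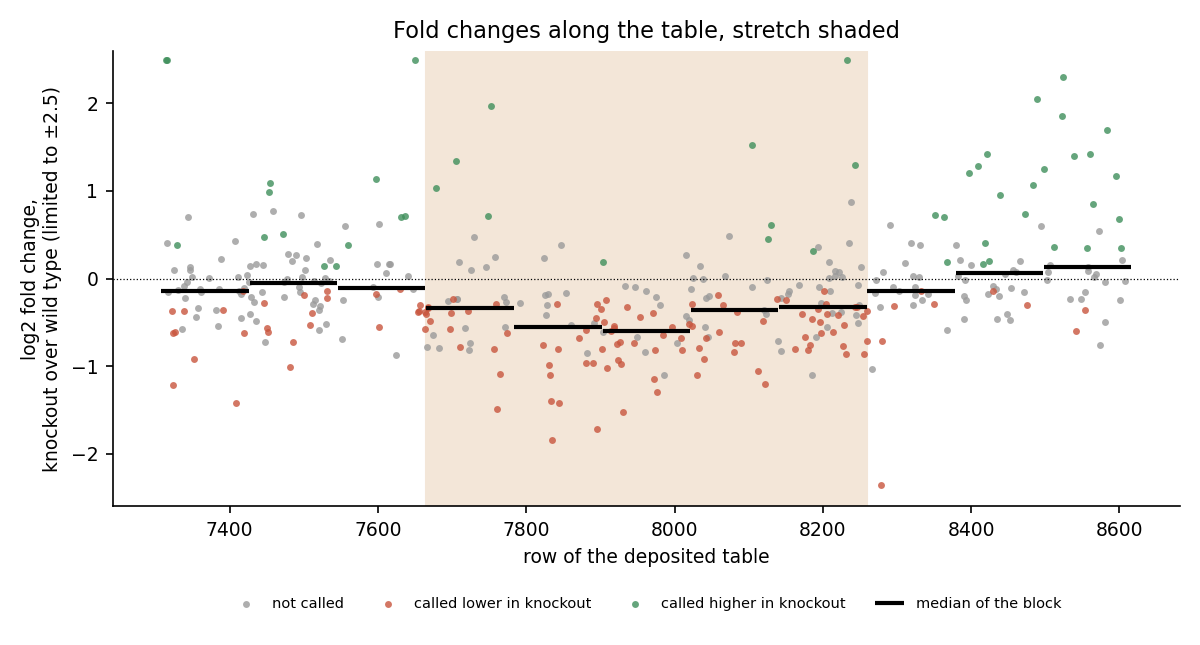
Log2 fold change, knockout over wild type (y axis, limited to ±2.5), of each tested transcript by its row in the table (x axis) from row 7308 to row 8616, with the stretch shaded. Points are coloured by call and black lines are medians of 119 rows. Medians inside the shaded rows run from -0.60 to -0.32, and from -0.15 to 0.13 in the flanks.

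The transcripts with the largest individual falls went well beyond the shared decrease. Those called lower had a median log2 fold change of -0.62 (1.53-fold lower), and 14 of the 94 had a log2 fold change of -1 or less. Among all tested transcripts, called or not, 8.51% of members and 1.88% outside the stretches lay below -1. The largest fall under the naming rule was that of uc007mfe.1, in row 7835. Its level was 14.4, 11.1 and 12.7 CPM in wild-type replicates 1, 2 and 3 and 3.07, 4.04 and 3.64 CPM in knockout replicates 1, 2 and 3. Every wild-type value was well above every knockout value. Mean levels were 12.7 ± 1.68 and 3.58 ± 0.489 CPM (SD, n = 3 each), and the log2 fold change was -1.84 ± 0.17 (SE, edgeR adjusted p = 3.36e-08).

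The next largest fall among members with a mean of at least 2 CPM was that of uc007miw.1, in row 7930. A weaker member, in row 7896, had a larger called fall (log2 fold change -1.72, edgeR adjusted p = 0.00402) and lay under that floor; it is mentioned after its values were seen. uc007miw.1 had 40, 28 and 34 reads in wild-type replicates 1, 2 and 3, or 4.07, 4.37 and 3.56 CPM. In knockout replicates 1, 2 and 3 it had 8, 13 and 11 reads, or 0.908, 1.46 and 1.91 CPM. The groups did not overlap, although the knockout values spread widely for their size. The log2 fold change was -1.52 ± 0.29 (SE, edgeR adjusted p = 0.000255).

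The 11 members that rose had log2 fold changes from 0.19 to 4.27, and 6 of them rose by at least 1. Among all tested transcripts, called or not, 3.19% of members and 8.11% outside the stretches had a log2 fold change of 1 or more. The largest rise under the naming rule was that of uc007mby.2, in row 7753. It measured 6.51, 6.40 and 6.91 CPM in wild-type replicates 1, 2 and 3 and 26.7, 25.1 and 26.4 CPM in knockout replicates 1, 2 and 3. Its replicates were tight in both genotypes and far apart between them. Mean levels were 6.61 ± 0.268 and 26.1 ± 0.829 CPM (SD, n = 3 each), and the log2 fold change was 1.97 ± 0.12 (SE, edgeR adjusted p = 6.86e-11).

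A smaller rise was measured for uc007mpu.1, in row 8105. It had 3.46, 2.97 and 2.51 CPM in wild-type replicates 1, 2 and 3 and 7.27, 9.19 and 9.72 CPM in knockout replicates 1, 2 and 3. The groups were separated. Its log2 fold change was 1.53 ± 0.20 (SE, edgeR adjusted p = 2.91e-06). The member in row 8233, singled out after its values were seen because its fitted change was the largest, had 2 wild-type reads, both in replicate 3, and 42 knockout reads. Knockout exceeded wild type by a ratio of 23.1, with an exact binomial 95% counting interval of 6.00 to 197 (edgeR adjusted p = 3.68e-05), and its mean of 0.896 CPM kept it outside the naming rule.

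**Figure D5:**
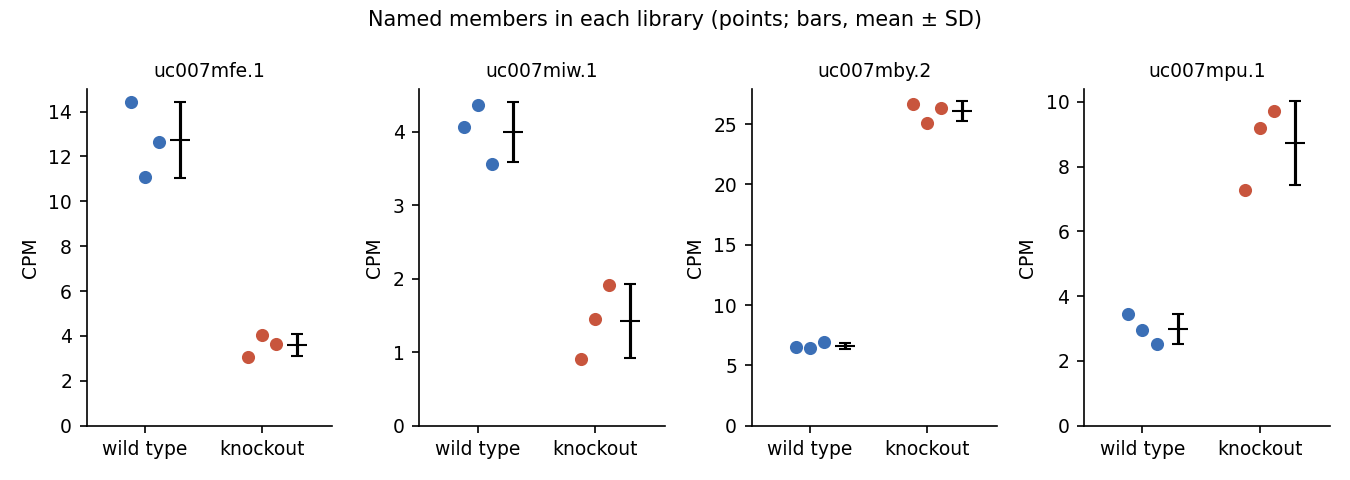
Level in CPM (y axis) of the 4 named members in each library, wild type in blue and knockout in red. Points are libraries and bars the mean and SD of 3. The first 2 panels fall, from 12.7 to 3.58 CPM for uc007mfe.1, and the last 2 rise, from 6.61 to 26.1 CPM for uc007mby.2.

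The 3 members with the highest CPM fell by less than the named members that fell, and with small standard errors. The member in row 8193 had 1860, 1835 and 1772 CPM in wild-type replicates 1, 2 and 3 and 1426, 1423 and 1449 CPM in knockout replicates 1, 2 and 3, giving a log2 fold change of -0.35 ± 0.04 (SE). The member in row 8229 had 1763, 1839 and 1756 CPM in wild type and 1342, 1158 and 1196 CPM in knockout, giving -0.54 ± 0.05 (SE). The member in row 7667 had 1572, 1592 and 1589 CPM in wild type and 1244, 1325 and 1239 CPM in knockout, giving -0.32 ± 0.04 (SE). None of these 3 overlapped between genotypes, and differences of this size were many times their standard errors.

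Values of the other lower stretches stand beside those here as a description. The median log2 fold change was -0.37 over the 702 tested transcripts of a long stretch near the top of the table and -0.39 over the 681 of another long stretch further down, beside -0.41 here. The share called lower was 48.6% and 50.7% there, beside the 94 of 188 here, and the interquartile range of log2 fold changes was 0.569 and 0.447 there and 0.558 here. Under 8 CPM the medians were -0.40, -0.42 and -0.51 in that order. All these values come from the same libraries and each stretch was chosen on them, so the differences between stretches were not tested.

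The authors' deposited table gives an adjusted p for 257 members. It lists 80 of these as lower and 11 as higher at an adjusted p under 0.05, and the authors' deposited table calls 7.35% lower and 15.1% higher outside the stretches. All 80 lower and 9 of the 11 higher calls in the authors' deposited table had an edgeR call of the same sign here, and 0 had the opposite one. Outside the stretches this held for 1174 of their 1234 lower and 2229 of their 2544 higher calls, with 0 opposite. Both sets of calls come from the same libraries, so their agreement is no separate evidence about the members. The log2 fold changes in the authors' deposited table were -1.76 for uc007mfe.1, -1.36 for uc007miw.1, 1.94 for uc007mby.2 and 1.45 for uc007mpu.1.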

How the data were processed

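The deposited table holds raw counts per UCSC transcript identifier for 3 wild-type and 3 knockout libraries. The submitters' processing notes name mm9 as the build and list Bowtie 0.12.7, DESeq2 and R 2.12.1. The sources used here do not give the counter, its strand setting or its rule for multiple alignments. Reads of overlapping, antisense or near-identical transcripts may be shared between members. Normalized counts, deposited as whole numbers and treated as a score, and the authors' deposited fold (ratio) column were not used. The authors' deposited log2 fold changes and p-values were set beside the calls made here.

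Counts were filtered with filterByExpr of edgeR 4.0.16 (R 4.3.3), which kept 12713 identifiers, scaled by TMM and tested with glmQLFit and glmQLFTest over the whole table without covariates, at a Benjamini-Hochberg adjusted p of 0.05. The code was tested on simulated data. The standard error of a fold change comes from its F value. Members are rows 7665 to 8259; the other stretches are rows 13 to 2675, 36088 to 36681 and 40746 to 42966. Named transcripts are the 2 largest changes each way among called members with a mean of 2 CPM or more and no overlap between genotypes; the 3 members with the highest CPM and 3 tested rows either side of each end are given by row. Planned gene lists and markers were not run, since no table used here pairs these identifiers with symbols. Alternatives were other scalings, filters, DESeq2 1.42.0, a replicate block, each library left out, trimmed ends and 1 transcript per 5 rows. The members and lists were chosen with earlier results of these data known.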

Additional observations from a re-analysis of the deposited data

How the results depend on the processing

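Over 14 alternatives, which included DESeq2 in place of edgeR and an adjusted p of 0.01, between 69 and 103 members were called lower and between 9 and 13 higher, within 1.5 times the reported 94 and 11. The number tested and the share called outside the stretches moved as well. DESeq2, with its own filter, called 69 of 252 members lower beside 5.59% outside, and with no low-count filter edgeR called 96 of 360 beside 6.48%, where the reported 94 of 188 stand beside 14.0%. All 69 lower calls by DESeq2 were among the 94. The shift of the median against transcripts outside the stretches, -0.44, became -0.49 with no low-count filter, -0.52 for members under 8 CPM and -0.51 with 50 rows taken off each end. It lay between -0.47 and -0.43 with each library left out, and was -0.45 with 1 transcript per 5 rows. Since scaling moves members and others alike and the rows were kept as chosen, this steadiness tests little. The ratio of the shares of library counts lay between 0.761 and 0.772 with a library left out. None of the 4 named transcripts lost its call or its sign in 13 alternatives each; the largest adjusted p was 0.00578, for uc007miw.1 with DESeq2. 

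The libraries were not treated as pairs, as the correlations of deviations across transcripts in same-numbered pairs were 0.071, 0.097 and 0.023, none over 0.1. By these correlations every library came closest to the one with its number, which hints at pairing from the data and not from the design. With the replicate block 102 members were lower and 11 higher, and the shift was -0.44. Depth limits the members under 2 CPM, where most single changes of this size did not pass the test.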

Other observations

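Members with a lower fitted level in knockout followed each other in unbroken runs, which were looked for after the values were seen. The longest held 33 consecutive tested members, from row 7904 to row 8015, all with log2 fold changes between -1.52 and -0.08, of which 22 fell. The next held 15, in rows 8138 to 8186, of which 8 fell, and another held 13, in rows 7853 to 7902, of which 9 fell. In the whole stretch 94 of 188 tested members fell, against 14.0% outside the stretches. Since the rows were chosen as lower and 81.9% of tested members had a negative log2 fold change, the runs are a description only. Runs outside the stretch were not counted. Of the 14 members called lower with a log2 fold change of -1 or less, 4 lay in rows 7832, 7833, 7835 and 7844, with log2 fold changes of -1.10, -1.40, -1.84 and -1.42. Whether these neighbours belong to the same gene or share reads was not tested. No tested member had the same 6 counts as the tested member listed before it.

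Some members that rose lay next to each other among the tested members. The members in rows 7749 and 7753 went from 11.2 ± 1.35 to 18.6 ± 2.77 CPM and from 6.61 ± 0.268 to 26.1 ± 0.829 CPM (SD, n = 3 each), and those in rows 8126 and 8130 from 46.1 ± 5.87 to 62.4 ± 1.28 CPM and from 3.60 ± 0.567 to 5.58 ± 0.749 CPM. The member in row 8243, apart from these, rose from 12.4 ± 1.19 to 30.7 ± 1.74 CPM.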
